A study of Sus scrofa with 32 samples.

Results

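Testes of 10 heavy pigs, with a carcass of 92 kg or more, were compared with those of 8 light pigs, with a carcass of 86 kg or less. These 18 pigs were chosen by carcass weight alone, from 32 boars whose testis messenger RNA was sequenced. A further 11 pigs weighed between the classes and 3 had no weight in the labels. All came from a Danish cross of Duroc and Landrace/Yorkshire stock, which the labels place at a slaughter weight of about 100 kg and give no age. Heavy pigs averaged 95.6 kg ± 3.33 (SD, n = 10, 92.2 to 101.9 kg) and light pigs 82.7 kg ± 3.10 (SD, n = 8, 76.2 to 85.8 kg). The nearest pigs outside the classes weighed 90.5 and 86.2 kg. Of the heavy pigs 5 were fed chicory, a root rich in inulin added at 15%, for 3 days before slaughter and 5 were fed the control diet. Of the light pigs 4 were fed chicory and 4 the control diet. The submitters' AS group, which stands for androstenone and skatole, was High in 8 and Low in 2 heavy pigs, against High in 2 and Low in 6 light pigs.

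The boar testis makes sperm in its tubules and steroids in the Leydig cells between them. Leydig cells take up or make cholesterol, cut it to pregnenolone with CYP11A1 and turn that into androgens or, through CYP17A1 with cytochrome b5 (CYB5A), into 16-androstenes such as androstenone, which collects in fat and gives boar taint. Steroid output and sperm production come up at puberty, and growth factors pass between Sertoli, Leydig and germ cells.

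Reads counted in genes ran from 2268778 to 14677811 in heavy pigs, where 2 libraries held more than 8000000, and from 2950417 to 20349500 in light pigs, where 3 did. The mean log2 total was 22.1 in heavy and 22.6 in light pigs (exact permutation p = 0.294, adjusted p = 0.412 over 7 tests). In the shallowest libraries a level near 1 CPM, counts scaled to library size, rests on few reads. The gene models of the main comparison and of the diet split therefore held a term for libraries above 8000000 counts. All of these libraries, and no others, carried the same index set, and every library of lane 7 was among them. Depth therefore cannot be told apart from the set of libraries. The pigs came from 11 sows, of which 3 had pigs in both classes. The labels place each library in a separate pig, so the p-values measure the spread between these animals. Littermates were counted as separate, independent pigs. The tests of androstenone, AS group and breeding value held no term for sow. The germ cell gene PRM1 and the Leydig cell gene INSL3 were detected in every library, while the epididymal gene CRISP1 was at 0 CPM in all 18 libraries and LCN8 reached 0.287 CPM in heavy and 0.316 CPM in light pigs. ADAM7, another epididymal gene, had 20.8 to 52.4 CPM in heavy and 20.7 to 48.4 CPM in light pigs.

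Heavy pigs carried more androstenone on average, with a spread wide enough that the difference in means missed the threshold. The concentration had a lowest, median and highest value of 0.56, 1.685 and 7.77 mg/kg in heavy pigs and of 0, 0.655 and 4.74 mg/kg in light pigs. The means were 2.67 mg/kg ± 2.43 (SD) in heavy and 1.01 mg/kg ± 1.57 (SD) in light pigs, a difference of 1.66 mg/kg (two-sided exact permutation p = 0.114, adjusted p = 0.199 over 7 tests). The ranges overlapped, and 1 light pig, light replicate 1 at 4.74 mg/kg, stood far above the other light pigs, whose highest value was 1.12 mg/kg. Without that pig the difference was 2.19 mg/kg (exact permutation p = 0.00381), and leaving out each of the 18 pigs in turn gave 1.09 to 2.19 mg/kg. On the log2 scale, after adding 0.5 mg/kg, the difference was 1.20 (exact permutation p = 0.0333). In the libraries of 8000000 counts or fewer the means were 2.69 mg/kg in heavy and 0.344 mg/kg in light pigs (exact permutation p = 0.0140). Library depth is no trait of the animal, and this subset left out both High AS light pigs, light replicates 1 and 4.

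High AS pigs were more frequent among heavy pigs, short of the threshold. High AS pigs made up 80% of the heavy class (8 of 10, exact Clopper-Pearson 95% interval 44.4% to 97.5%) and 25% of the light class (2 of 8, interval 3.19% to 65.1%). Fisher's exact test gave p = 0.0536 (two-sided, adjusted p = 0.125 over 7 tests). Among libraries of 8000000 counts or fewer, 6 of 8 heavy and 0 of 5 light pigs were High AS (Fisher's exact p = 0.0210). Both High AS light pigs had libraries above 8000000 counts, so the 0 followed from the choice of libraries. A count of 0 of 5 still allows a share of up to 52.2% by the same interval.

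Within an AS group the differences were smaller, on very few pigs. High AS pigs averaged 3.14 mg/kg when heavy and 2.93 mg/kg when light, over 8 and 2 animals (exact permutation p = 1). Low AS pigs averaged 0.80 mg/kg when heavy and 0.373 mg/kg when light, over 2 and 6 animals (exact permutation p = 0.286, where 0.0714 is the smallest value possible). Weight and AS group thus cannot be told apart in most of these pigs.

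Over all 29 pigs with both values, weight went with androstenone at Pearson r = 0.43 (permutation p = 0.0195, adjusted p = 0.0652 over 10 relations) and Spearman rho = 0.41 (permutation p = 0.0267, adjusted p = 0.0913). Over the 7 tests used for the other phenotypes, the adjusted permutation p of each was 0.0934. Without the 2 pigs farthest from the median weight r was 0.35 (permutation p = 0.0696), so the unadjusted call rested on them. Within High AS pigs r was 0.28 (n = 15, permutation p = 0.306) and within Low AS pigs 0.45 (n = 14, permutation p = 0.112). Without the 2 pigs farthest from the median weight of each these were 0.17 (n = 13, permutation p = 0.574) and 0.11 (n = 12, permutation p = 0.731). Libraries of 8000000 counts or fewer gave 0.53 (n = 21, permutation p = 0.0181), and those above gave 0.30 (n = 8, permutation p = 0.501). Among the 11 pigs between the classes the sign was the other way, with r = -0.58 (permutation p = 0.0628) and rho = -0.37 (permutation p = 0.262). These pigs weighed only 86.2 to 90.5 kg. A pig of 86.6 kg among them had 3.89 mg/kg, where the others had at most 1.46 mg/kg. The sire's breeding value for androstenone differed by -0.04 (heavy mean -0.025 ± 0.293, light mean 0.0188 ± 0.288, SD; exact permutation p = 0.758). Pigs of the same sow mostly shared this value, and the test counted it once per pig.

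**Figure D1:**
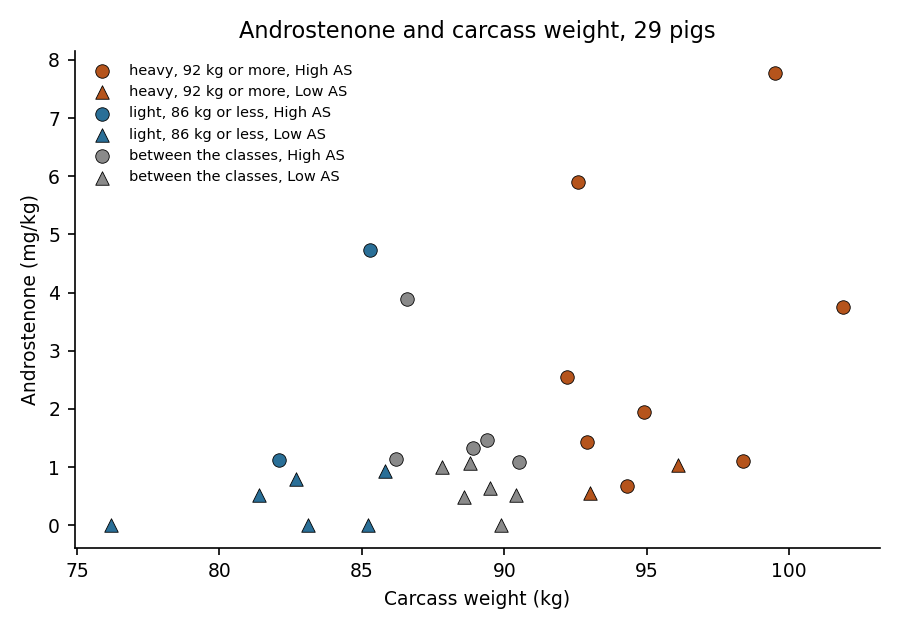
Androstenone (mg/kg) against carcass weight (kg) in 29 pigs, with color for weight class and shape for AS group. The highest heavy pig reached 7.77 mg/kg, while 1 light pig at 4.74 mg/kg stood above the other light pigs, which had at most 1.12 mg/kg.

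No gene differed between heavy and light testes at an adjusted p under 0.05. The edgeR quasi-likelihood test with Benjamini-Hochberg adjustment called 0 of 12775 genes (0% higher and 0% lower), and every adjusted p was 1.00. At an unadjusted p under 0.05 it found 164 genes (1.28%), of which 94 (0.736%) were higher and 70 (0.548%) lower in heavy pigs. limma voom and DESeq2 also called 0, where 196 and 214 genes were under 0.05 before adjustment. No gene separated the classes completely (0%). Estimates were higher in heavy pigs for 50.5% of genes, and the median log2 fold over all genes was 0.00. What follows therefore gives levels and estimates, none of which is a called change. In whole testis, fewer cells of a type and less RNA per cell cannot be told apart.

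Among the 8 tested genes of a core steroid list, 7 had higher estimates in heavy pigs, with a median log2 fold of 0.44. The median was 0.23 without heavy replicate 3 and 0.22 by limma voom (6 of 8 higher), and in libraries above 8000000 counts 4 of 8 were higher (median 0.05). LHCGR, the receptor for luteinizing hormone, had a lowest, median and highest level of 0.264, 3.69 and 18.4 CPM in heavy pigs and of 1.85, 2.91 and 3.48 CPM in light pigs. Its log2 fold was 0.51 (95% interval -0.54 to 1.55), or 0.13 without heavy replicate 3, -0.02 by limma voom and -1.07 in libraries above 8000000 counts. Heavy pigs thus lay on both sides of the light pigs, 6 above all of them and 3 below. CYP11A1, the side-chain cleavage enzyme, had 55.0, 180 and 515 CPM in heavy pigs and 56.9, 127 and 222 CPM in light pigs, with a log2 fold of 0.55 (interval -0.18 to 1.27).

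CYP17A1, the branch point to androgens and 16-androstenes, had 313, 952 and 2933 CPM in heavy pigs and 255, 631 and 1459 CPM in light pigs. Its means were 1334 CPM ± 933 in heavy and 681 CPM ± 415 in light pigs (SD), with a log2 fold of 0.75 (interval 0.05 to 1.44, unadjusted p = 0.0359). The ranges overlapped, though 9 of 10 heavy pigs were above the light median and 3 above every light pig. The log2 fold was 0.71 (SE 0.42) with AS group in the model and 0.66 (SE 0.40) with the log2 of androstenone, and leaving out single pigs gave 0.59 to 0.93. CYB5A, the cytochrome that acts with CYP17A1, had 474, 1044 and 2145 CPM in heavy pigs and 600, 862 and 1093 CPM in light pigs. Its log2 fold was 0.38 (interval -0.16 to 0.93), or -0.10 in libraries above 8000000 counts.

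SRD5A1, a steroid 5-alpha-reductase, had a lowest, median and highest level of 32.8, 69.4 and 159 CPM in heavy pigs and of 22.0, 40.6 and 70.8 CPM in light pigs. Over the 2 classes this gave a log2 fold of 0.71 (interval 0.13 to 1.29, unadjusted p = 0.0182). Here 3 heavy pigs were above every light pig and none was below them all. The highest, heavy replicate 2 at 159 CPM, was also a pig with 5.9 mg/kg androstenone, and the log2 fold was 0.53 without it. Other heavy pigs did not pair this way. Heavy replicate 10, with the most androstenone at 7.77 mg/kg, had 68.8 CPM of SRD5A1. Heavy replicate 3, next highest for SRD5A1 at 88.6 CPM, had 1.04 mg/kg. With the log2 of androstenone in the model the log2 fold was 0.18 (SE 0.29), and with AS group 0.58 (SE 0.37).

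HSD17B3, which makes testosterone from androstenedione, was the 1 member of the core list with a lower estimate, at 40.5, 85.3 and 259 CPM in heavy and 38.2, 102 and 179 CPM in light pigs. Its log2 fold was -0.22 (interval -0.74 to 0.30), and 0.10 with the log2 of androstenone in the model. INSL3, a Leydig cell hormone of testis descent, had 214, 861 and 2612 CPM in heavy and 334, 668 and 1291 CPM in light pigs, with a log2 fold of 0.35 (interval -0.40 to 1.11), or -0.25 in libraries above 8000000 counts. NR5A1, the factor that switches on steroid enzyme genes, had 0.33 (interval -0.43 to 1.08), and 0.09 without heavy replicate 4. NR0B1, a repressor of NR5A1, had 3.67, 6.77 and 8.03 CPM in heavy and 4.80, 7.45 and 14.7 CPM in light pigs, a log2 fold of -0.46 (interval -0.92 to 0.00). Of the 12 Leydig cell markers tested 9 had higher estimates, with a median log2 fold of 0.25, and their summed level ran from 698 to 6169 CPM in heavy and from 846 to 2761 CPM in light pigs. The median was 0.16 without heavy replicate 3 and 0.13 by limma voom, and in libraries above 8000000 counts 5 of 12 were higher (median -0.17). CYP17A1 and CYP11A1 belong to this list and to the core steroid list, so the counts of these lists are not independent. The part of these marker levels in the steroid gene values was not tested. STAR, HSD3B1, CYP19A1 and POR had no identifier under their symbol and were not analysed here.

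The wider steroid lists had smaller medians than the core list. Of 15 tested genes of steroid synthesis 10 had higher estimates (median log2 fold 0.06), and of 5 genes of sulfation and conjugation 4 did (median 0.17). PAPSS2, which makes the sulfate donor that sulfotransferases need, had 14.8, 45.4 and 97.5 CPM in heavy and 16.6, 35.4 and 43.8 CPM in light pigs. Of the heavy pigs 5 were above every light pig and 2 below, with a log2 fold of 0.56 (interval -0.11 to 1.23).

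**Figure D2:**
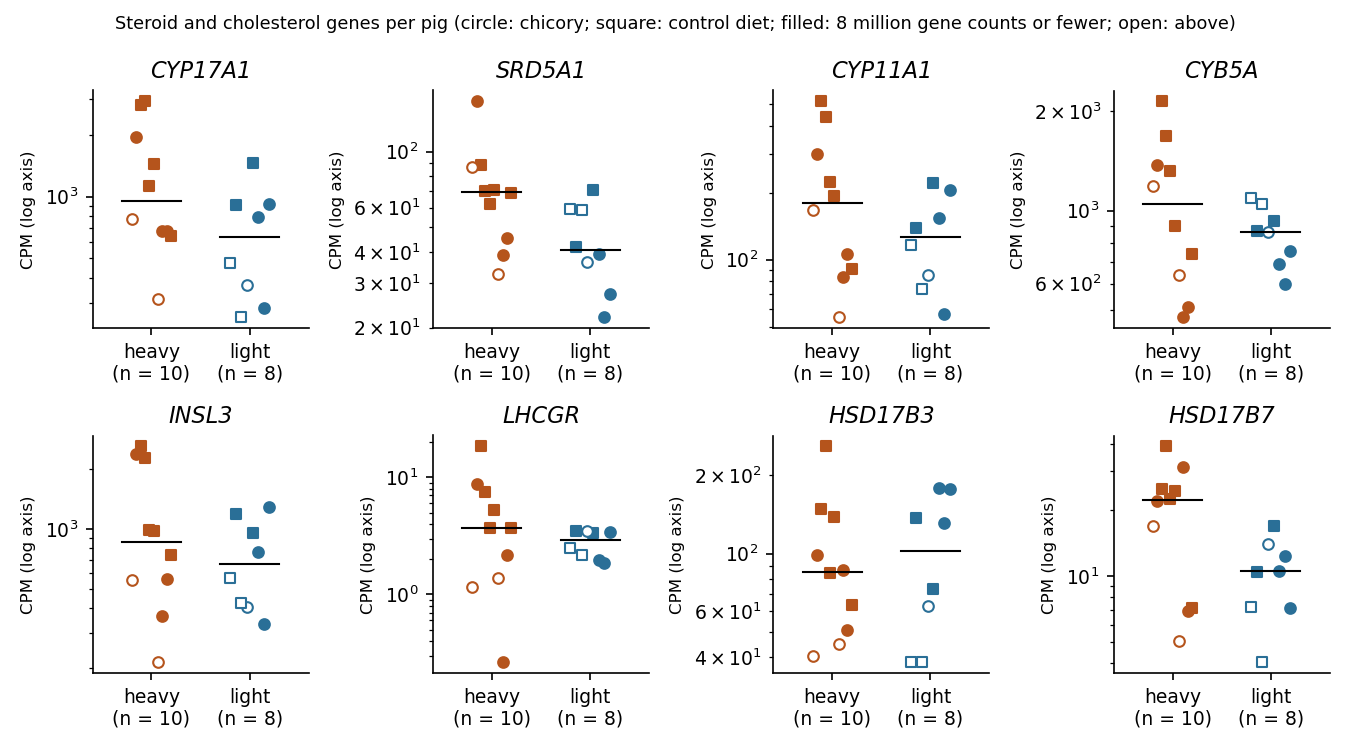
Levels of 8 steroid and cholesterol genes in CPM (log axes) per pig, heavy left and light right. Bars are medians, circles are pigs on chicory and squares pigs on control diet, and open symbols are libraries above 8000000 gene counts. The classes overlap in every panel, and for HSD17B7 6 heavy pigs lie above all light pigs, whose highest value is 16.9 CPM.

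Genes of cholesterol synthesis and uptake leaned to the heavy pigs. Of 27 tested members 25 had higher estimates, with a median log2 fold of 0.27, against 50.5% and 0.00 over all genes. None was called, and 5 had an unadjusted p under 0.05, all higher, where 0.736% of all genes did. The summed level of the list had a lowest, median and highest value of 2767, 3084 and 3735 CPM in heavy pigs and of 2124, 2767 and 3056 CPM in light pigs. Most heavy pigs were High AS, so this count shares its pigs with the comparison of AS groups and is no independent support for it. With AS group in the model 18 of 27 had higher estimates (median 0.19), with the log2 of androstenone 24 of 27 (median 0.23). In libraries of 8000000 counts or fewer 25 of 27 did (median 0.37), and in the 5 libraries above 17 of 27 did (median 0.09).

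HSD17B7, which acts in cholesterol synthesis as a 3-ketosteroid reductase, had 5.05, 22.2 and 38.9 CPM in heavy and 4.04, 10.5 and 16.9 CPM in light pigs. Here 6 of 10 heavy pigs were above every light pig, and the log2 fold was 0.78 (interval 0.09 to 1.48). HMGCS1, an early enzyme of the pathway, had 173, 317 and 482 CPM in heavy and 159, 243 and 290 CPM in light pigs, with a log2 fold of 0.42 (interval 0.02 to 0.83). MSMO1, a sterol methyl oxidase, had 35.9, 77.2 and 263 CPM in heavy and 27.3, 59.4 and 79.7 CPM in light pigs, with a log2 fold of 0.74 (interval 0.03 to 1.45). Both are shown for their p, and in both the classes overlapped. The lower estimates were those of NPC2, a lysosomal cholesterol carrier, at -0.07 (interval -0.50 to 0.36), and SCAP, the sterol-sensing escort of SREBP, at -0.10 (interval -0.41 to 0.20). Both intervals span 0.

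**Figure D3:**
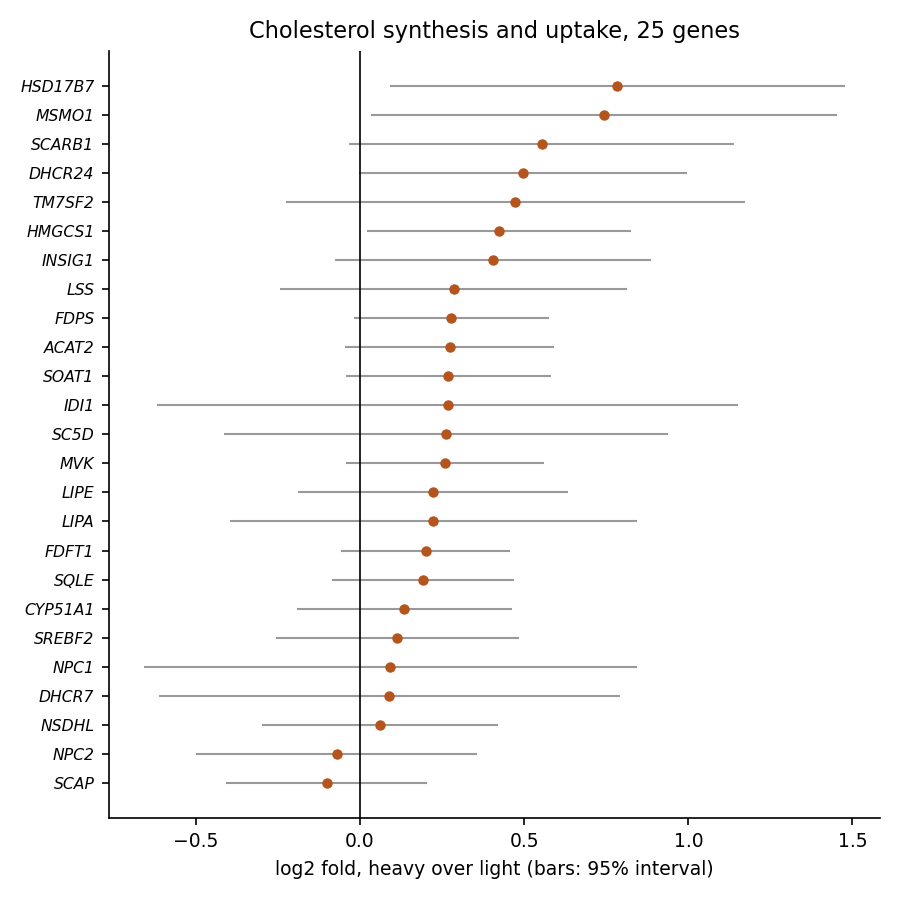
Log2 fold of heavy over light for genes of cholesterol synthesis and uptake, with 95% intervals. Of the genes shown, NPC2 at -0.07 and SCAP at -0.10 lie left of 0, and the intervals of HSD17B7, MSMO1 and HMGCS1 stay above 0.

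Growth factor genes showed no common direction. Of 14 tested genes of the IGF and growth hormone axis 7 had higher estimates (median log2 fold 0.00), with members from -0.34 to 0.42. IGF1, the growth factor that carries much of the growth hormone effect, had 0.527, 2.45 and 6.09 CPM in heavy and 1.85, 3.59 and 12.6 CPM in light pigs. Its log2 fold was -0.34 (interval -1.04 to 0.36), -0.15 without light replicate 3 and 0.06 with AS group in the model. The growth hormone receptor GHR had -0.08 (interval -0.66 to 0.51) and the IGF2 clearance receptor IGF2R -0.02 (interval -0.85 to 0.81). IGF2BP2, an RNA-binding protein that acts on IGF2 messenger RNA, had 0.42 (interval -0.02 to 0.85). IGF2 and IGFBP3 had no identifier, and IGF1R did not pass the filter on low counts.

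In the TGF-beta, activin and BMP family 9 of 26 tested genes had higher estimates (median -0.14), but the smallest p values of the family belonged to genes that were higher. TGFB3, a ligand that acts on the junctions between Sertoli cells, had 1.32, 6.49 and 18.6 CPM in heavy and 1.64, 3.34 and 7.23 CPM in light pigs. Heavy pigs reached beyond the light range at both ends, 5 above and 1 below, and the log2 fold was 1.02 (interval 0.17 to 1.87). BMP5, a bone morphogenetic protein, had 3.67, 11.5 and 16.9 CPM in heavy and 1.25, 6.33 and 13.7 CPM in light pigs, with a log2 fold of 0.74 (interval 0.06 to 1.42). GDF10, another ligand of the family, had -0.99 (interval -2.09 to 0.10), and 0.25 in libraries above 8000000 counts. INHA, the inhibin subunit by which Sertoli cells restrain follicle-stimulating hormone, had 25.8, 49.1 and 104 CPM in heavy and 29.6, 67.0 and 92.8 CPM in light pigs, a log2 fold of -0.18 (interval -0.73 to 0.37).

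HGF, a growth factor that mesenchymal cells send to epithelia through the receptor MET, had the smallest p among the growth genes, and its estimate was lower. It had 1.52, 2.80 and 6.08 CPM in heavy pigs and 3.11, 5.19 and 14.4 CPM in light pigs. Of the heavy pigs 6 were below every light pig and none above them all. The log2 fold was -1.01 (interval -1.74 to -0.28, unadjusted p = 0.00847), and with carcass weight as a number over 29 pigs the slope was -0.33 per 10 kg. MET itself had -0.06 (SE 0.41). Of the 17 genes in the EGF, KIT, HGF and neurotrophic list 3 had higher estimates (median -0.12), with 1 lower at an unadjusted p under 0.05, where 0.548% of all genes were.

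Vessel growth receptors had higher estimates, some of which depended on 1 pig or on the model. FLT1, a receptor for vascular endothelial growth factor, had 17.8, 33.7 and 37.3 CPM in heavy and 17.4, 23.0 and 32.3 CPM in light pigs. Of the heavy pigs 8 were at 31.2 CPM or more, and heavy replicates 2 and 3 lay among the lowest of all. Between the classes the estimate was 0.40 (log2 fold, interval 0.06 to 0.74), or 0.16 with AS group in the model. FLT4, the receptor of lymphatic vessels, had 0.65 (interval -0.10 to 1.40), but 0.09 without heavy replicate 7 and 0.22 in libraries of 8000000 counts or fewer. KDR, the main receptor of vessel growth, had 0.32 (SE 0.30). PDGFC, a platelet-derived growth factor, had 0.33 (interval -0.00 to 0.66). Of 10 endothelial markers 9 had higher estimates (median 0.17). Their summed level had a lowest, median and highest value of 71.4, 100 and 169 CPM in heavy and of 55.4, 104 and 124 CPM in light pigs. The median of that sum was thus slightly lower in heavy pigs. The count of higher estimates was 5 of 10 with AS group in the model (median -0.01), 4 of 8 with no depth term (median 0.03) and 6 of 9 without heavy replicate 4 (median 0.01).

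**Figure D4:**
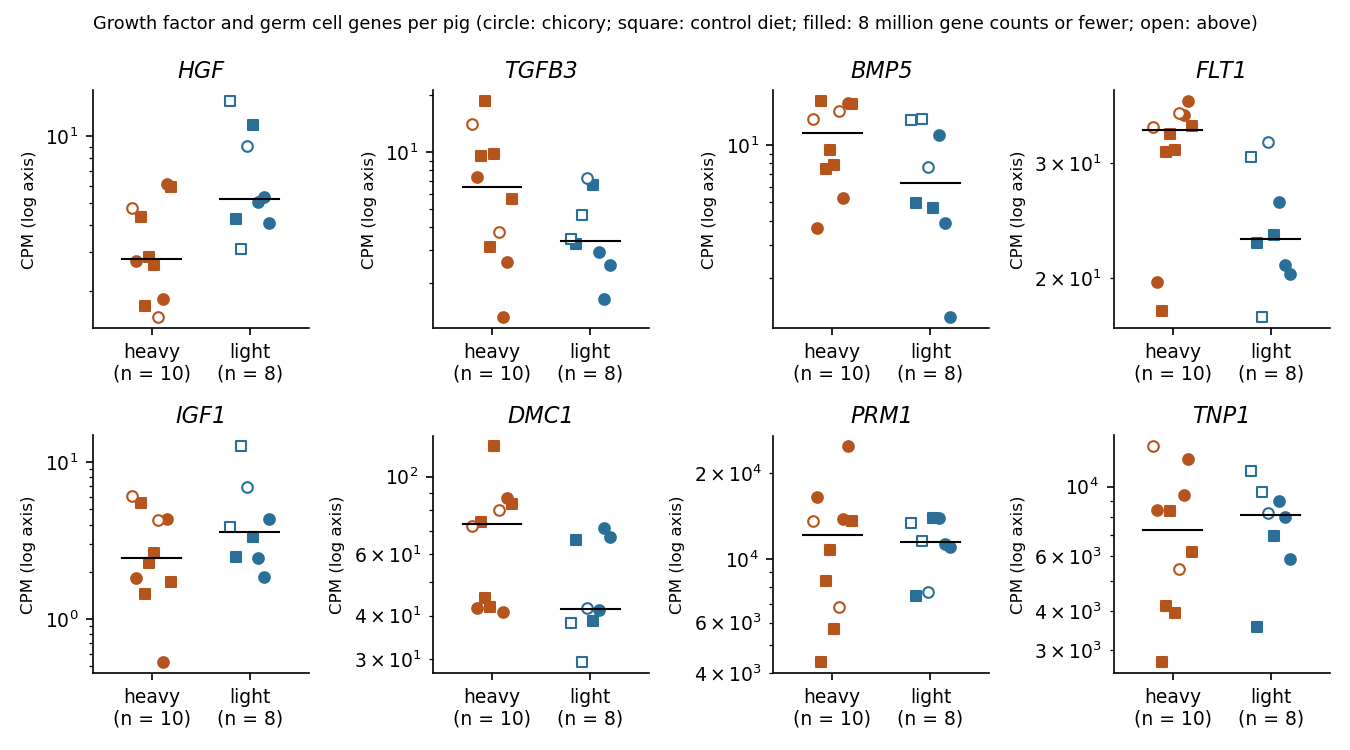
Levels of 5 growth factor genes and 3 germ cell genes in CPM (log axes) per pig, heavy left and light right, with symbols as in the plot of steroid genes. HGF has 6 heavy pigs below all light pigs, and for PRM1 the 4 lowest heavy pigs include 3 on control diet.

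Testis maturity genes were close between the classes. PRM1, the protamine that packs sperm DNA, had 4355, 12169 and 24896 CPM in heavy pigs and 7426, 11463 and 13962 CPM in light pigs. Heavy pigs held both the highest and the lowest values, 2 above and 3 below the light range, and the log2 fold was 0.04 (interval -0.53 to 0.60). TNP1, the transition protein that comes before protamine, had 0.03 (interval -0.52 to 0.57), the sperm tail scaffold AKAP4 0.12 (interval -0.33 to 0.58) and the acrosome gene ACRV1 0.16 (interval -0.30 to 0.61). PRM1, TNP1 and AKAP4 had negative estimates with AS group or with androstenone in the model.

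By list, small shifts were shared by many spermatid genes. Of 24 round spermatid markers 22 had higher estimates (median log2 fold 0.09), and of 27 elongating spermatid markers 26 did (median 0.09), with no member called. These counts depended on the model. With AS group in the model they were 14 of 24 and 7 of 27 (medians 0.04 and -0.08), and without heavy replicate 9 the second was 14 of 27 (median 0.01). The summed level of the elongating list had a lowest, median and highest value of 20974, 49051 and 78422 CPM in heavy pigs and of 29487, 46988 and 61241 CPM in light pigs.

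Earlier germ cells and Sertoli cells gave values on both sides of 0. KIT, the receptor of differentiating spermatogonia, had 7.45, 12.5 and 17.2 CPM in heavy and 9.67, 14.4 and 23.7 CPM in light pigs, a log2 fold of -0.28 (interval -0.70 to 0.14). STRA8, which starts meiosis, had -0.16 (interval -0.59 to 0.26) and SYCP3, a part of the meiotic chromosome axis, -0.02 (interval -0.32 to 0.28). DMC1, the meiotic recombinase, had 40.9, 73.2 and 122 CPM in heavy and 29.4, 41.7 and 71.5 CPM in light pigs. Of the heavy pigs 6 were above every light pig, with a log2 fold of 0.48 (interval 0.02 to 0.94), or 0.25 in libraries of 8000000 counts or fewer. Of 26 spermatocyte markers 13 had higher estimates (median 0.00), and of 10 spermatogonial markers 3 did (median -0.18). Of 21 Sertoli cell markers 9 did (median -0.04), with SOX9, a Sertoli cell factor, at -0.10 (interval -0.43 to 0.24). Of 20 cell cycle genes 9 had higher estimates (median -0.03).

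Split by diet, the estimates for spermatid and Sertoli cell lists had opposite signs. This split was chosen after the values were seen, and each diet holds 5 heavy and 4 light pigs. The AS groups were even across it, with 4 of 5 heavy and 1 of 4 light pigs High AS on each diet. Libraries above 8000000 counts were not, at 2 of 5 heavy and 1 of 4 light pigs on chicory and 0 of 5 heavy and 2 of 4 light pigs on control diet. The edgeR test of the difference between the diets called 0 of 13020 genes (0%). Before adjustment 867 of them (6.66%) were under 0.05, and the smallest adjusted p was 0.723. That count was 1597 (12%, smallest adjusted p 0.191) without light replicate 2 and 467 (3.58%) without heavy replicate 9. It called 0 within chicory, where 660 genes (5.07%) had an unadjusted p under 0.05, and 0 within control diet, where 327 (2.51%) did. Leaving out single pigs gave 335 to 924 genes on chicory, the fewest without heavy replicate 9, and 238 to 774 on control diet, the most without light replicate 2. Without light replicate 8 the control diet contrast called 1 gene, C7, a part of the complement cascade, named for that call (log2 fold 4.10, adjusted p = 0.0134 by edgeR), against 3.47 with all 18 pigs. Light replicate 8 was itself a pig on chicory.

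Elongating spermatid markers had higher estimates in heavy pigs for 27 of 27 genes on chicory (median log2 fold 0.33) and for 3 of 27 on control diet (median -0.26). Over all genes the medians were -0.01 on chicory and 0.02 on control diet. Leaving out each pig in turn kept the chicory median between 0.21 and 0.43 and the control diet median between -0.43 and -0.13. In libraries of 8000000 counts or fewer the medians were 0.42 on chicory and -0.05 on control diet, where 2 light pigs were left. The summed level of the list had medians of 55852 CPM in heavy and 45930 CPM in light pigs on chicory, and of 31618 CPM in heavy and 48579 CPM in light pigs on control diet. On control diet the ranges, 20974 to 49073 CPM in heavy and 29487 to 61241 CPM in light pigs, overlapped. Round spermatid markers had medians of 0.37 on chicory (22 of 24 higher) and -0.19 on control diet (5 of 24). In libraries of 8000000 counts or fewer these were 0.35 (21 of 24) and -0.03 (8 of 24).

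PRM1 had opposite signs of the estimate on the 2 diets, while single pigs of both classes were mixed. On chicory it had 6819, 13593, 13819, 16578 and 24896 CPM in heavy pigs and 7698, 11033, 11318 and 13920 CPM in light pigs. On control diet it had 4355, 5714, 8404, 10746 and 13637 CPM in heavy pigs and 7426, 11608, 13431 and 13962 CPM in light pigs. The classes overlapped on both diets: on chicory heavy replicate 7 was below every light pig, and on control diet heavy replicate 10 was above 3 of 4 light pigs. The log2 fold was 0.52 (SE 0.33) on chicory and -0.70 (SE 0.36) on control diet, a difference of 1.22 (SE 0.50, unadjusted p = 0.0233, adjusted p = 0.723 by edgeR), or 0.96 (SE 0.52) in libraries of 8000000 counts or fewer.

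The Sertoli cell and matrix lists took the other sides. Sertoli cell markers had higher estimates for 4 of 21 genes on chicory (median -0.41) and for 16 of 21 on control diet (median 0.50). Their summed level had medians of 1829 CPM in heavy and 3450 CPM in light pigs on chicory, and of 3424 CPM in heavy and 1988 CPM in light pigs on control diet. The ranges overlapped on both diets. On chicory they were 1518 to 3158 CPM in heavy and 2238 to 4213 CPM in light pigs. On control diet they were 2398 to 5294 CPM in heavy and 1497 to 2927 CPM in light pigs. Collagens and matrix genes had 4 of 23 higher on chicory (median -0.37) and 21 of 23 on control diet (median 0.37). In libraries of 8000000 counts or fewer the Sertoli medians were -0.59 on chicory and 0.27 on control diet. CLDN11, which builds the tight junctions between Sertoli cells, had a log2 fold of -1.23 (SE 0.37) on chicory and 0.66 (SE 0.38) on control diet. DHH, a signal from Sertoli to Leydig cells, had 0 to 2.37 CPM in heavy pigs and 2.77 to 9.67 CPM in light pigs on chicory. The classes did not overlap there, as for 2.12% of all genes on chicory, but these levels rest on few reads. On control diet DHH had 0.854, 2.46, 6.12, 6.29 and 6.31 CPM in heavy pigs and 0.418, 0.421, 1.66 and 3.98 CPM in light pigs, which overlap.

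Cholesterol genes had higher estimates in heavy pigs for 19 of 27 genes on chicory (median 0.12) and 25 of 27 on control diet (median 0.58). The chicory median was -0.01 without heavy replicate 2. The core steroid list had 5 of 8 higher on chicory (median 0.23, or -0.33 without heavy replicate 2) and 8 of 8 on control diet (median 0.70). Leydig cell markers, which share genes with the core steroid list, had 6 of 12 higher on chicory (median 0.06) and 10 of 12 on control diet (median 0.47). Endothelial markers had 2 of 10 higher on chicory (median -0.27) and 9 of 10 on control diet (median 0.57). Leaving out single pigs gave chicory medians of -0.29 to 0.19 for Leydig and -0.43 to 0.08 for endothelial markers. On control diet these were 0.29 to 0.65 and 0.39 to 0.78.

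For CYP17A1 and SRD5A1 both diets gave positive estimates. CYP17A1 had log2 folds of 0.71 (SE 0.45) on chicory, or 0.37 without heavy replicate 2, and 0.83 (SE 0.48) on control diet. SRD5A1 had 1.20 (SE 0.35) on chicory, or 0.63 without heavy replicate 2, and 0.28 (SE 0.38) on control diet, a difference of 0.92 (SE 0.51). Androstenone had medians of 1.94 mg/kg in heavy and 0.395 mg/kg in light pigs on chicory, and of 1.11 mg/kg in heavy and 0.725 mg/kg in light pigs on control diet.

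**Figure D5:**
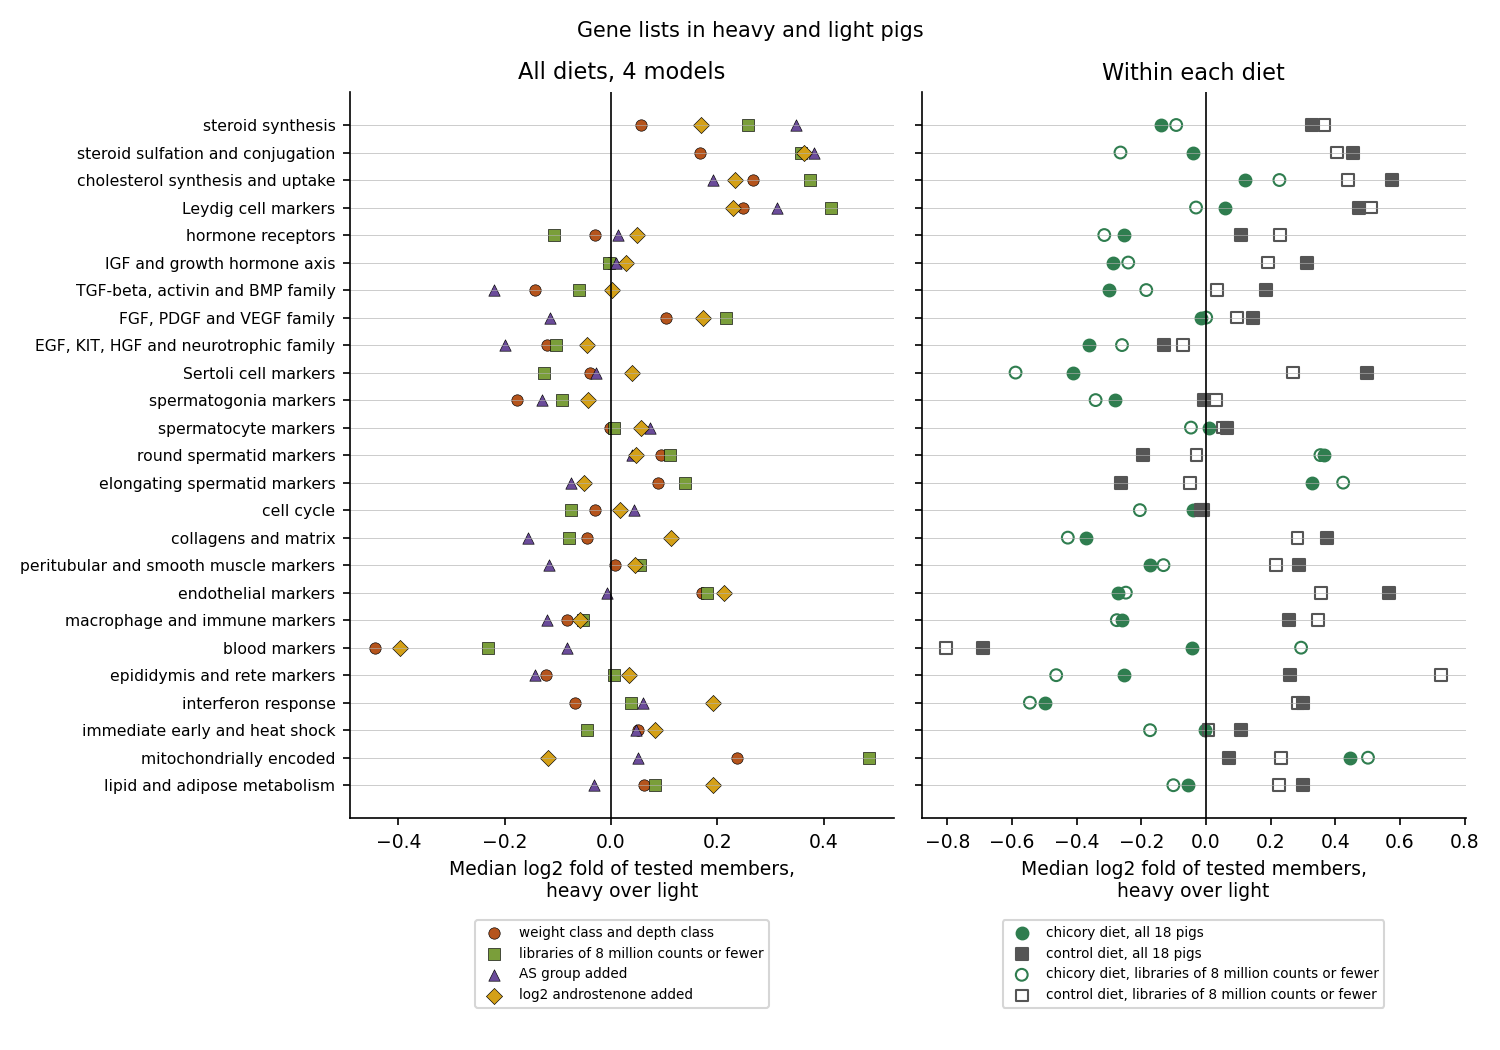
Median log2 fold of heavy over light for the tested members of each gene list, over all diets in 4 models (left) and within each diet (right; open symbols are libraries of 8000000 counts or fewer). On the right, elongating spermatid markers lie at 0.33 on chicory and -0.26 on control diet, and Sertoli cell markers at -0.41 and 0.50.

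Over both diets, other cells and stress genes gave these values. Of 9 macrophage and immune genes 3 had higher estimates (median -0.08), and of 22 collagens and matrix genes 9 did (median -0.05). The macrophage receptor CSF1R reached at most 1.80 CPM in heavy and 1.01 CPM in light pigs. HBB, the beta globin of blood, had 18.2 to 70.0 CPM in heavy and 9.04 to 175 CPM in light pigs. Of 11 interferon response genes 4 had higher estimates (median -0.07), and of 13 immediate early and heat shock genes 9 did (median 0.05). Mitochondrially encoded genes had 10 of 13 higher (median 0.24) with the depth term and 0 of 13 (median -0.36) without it, so their direction depended on that term.

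The genes with the smallest p values came from many roles, and none was called. PANK1, which starts the synthesis of coenzyme A, had 3.69, 7.25 and 19.9 CPM in heavy and 2.18, 4.32 and 8.77 CPM in light pigs, a log2 fold of 1.19 (interval 0.53 to 1.85, unadjusted p = 0.00109). GPD1L, related to glycerol-3-phosphate dehydrogenase, had 12.1, 23.2 and 33.9 CPM in heavy and 8.21, 13.6 and 19.2 CPM in light pigs, and 6 of 10 heavy pigs were above every light pig. Between the classes the log2 fold was 0.76 (interval 0.31 to 1.20). ZC3H12C, of a family of ribonucleases, had 0.57 (interval 0.23 to 0.91), and MGARP, a mitochondrial protein of steroid-making tissue, 1.27 (interval 0.44 to 2.09). Also higher in heavy pigs were the estimates of GRIN2B and GRIA1, subunits of glutamate receptors, at 1.22 and 1.15, KRT8, a keratin, at 0.80, and ZDHHC2, a palmitoyl transferase, at 0.78. Without heavy replicate 7 GRIN2B had 0.76 and KRT8 0.51, and the GRIN2B medians were 7.38 CPM in heavy and 7.11 CPM in light pigs.

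Among genes with lower estimates, RHOBTB3 had 7.12, 8.80 and 12.8 CPM in heavy and 8.64, 13.8 and 19.3 CPM in light pigs. No heavy pig was above the light median, and the log2 fold was -0.53 (interval -0.88 to -0.17, unadjusted p = 0.00571). ATP8A1, a phospholipid flippase, had -0.77 (interval -1.31 to -0.23), and TRIM23, a ubiquitin ligase, -0.59 (interval -1.04 to -0.14). POLA2, a subunit of the DNA polymerase that primes replication, had -0.47 (interval -0.84 to -0.11), and ASF1A, a histone chaperone, -0.36 (interval -0.64 to -0.08). PPWD1, OSGEPL1, WDR46 and NT5C had -0.90, -0.38, -0.35 and -0.52.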

How the data were processed

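Raw counts per gene, with no normalization, were deposited by the authors as 1 table per pig, and per the submitters' processing notes HTSeq 0.6.0, STAR, Trimmomatic 0.33, SAMtools 1.3.1 and cutadapt 1.8.1 were used. Build, annotation and strand setting are not given in the sources used here. Reads of overlapping or antisense genes therefore cannot be told apart. The 5 closing rows of each table, reads in no gene included (20.6% to 35.9% in heavy and 22.6% to 31.0% in light pigs), stayed out. Of 25322 identifiers 11804 had a symbol.

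Classes came from the labelled carcass weight. The 18 libraries entered edgeR 4.0.16 in R 4.3.3 (filterByExpr, TMM, glmQLFit and glmQLFTest, Benjamini-Hochberg at 0.05) with weight class and a class for more than 8000000 gene counts, tested first on simulated data. Standard errors are the log2 fold over the square root of F, intervals are 95%, and levels are TMM-scaled CPM. limma 3.58.1, DESeq2 1.42.0, other scalings, filters, covariates, sow as a random effect or fixed block and leaving out each pig were alternatives. Phenotypes were tested by exact permutation, by Fisher's exact test and, for correlations, with 100000 permutations. No 2 of 73 library pairs within a class agreed within sampling noise (smallest chi-square 7.23 per degree of freedom). Named were the 10 genes of smallest p in each direction, all tested core list genes and the 2 or 3 of smallest p in each list. Some of these genes are not reported here. Members and lists were chosen with earlier results of these data known. Lists were given as counts and medians, without a test. Replicate numbers follow accession order within a class and pair no pigs, while sow links some.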

Additional observations from a re-analysis of the deposited data

Results flagged for a closer look

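Of 188 groups of values tested, 22 held a pig whose gap to the nearest other pig exceeded Dixon's 95% critical value. Chance passes this test in about 1 in 20 groups only where values are normal. Here raw CPM and raw phenotype values were used, and most flags were highest values, so the count measures no excess of outliers. The cause of these values was not tested.

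Among phenotypes, light pigs had 1 androstenone value of 4.74 mg/kg, next to 1.12 mg/kg, and 1 carcass of 76.2 kg, next to 81.4 kg. Among steroid genes, the highest heavy pig had 159 CPM of SRD5A1, next to 88.6 CPM, 18.4 CPM of LHCGR, next to 8.71 CPM, and 259 CPM of HSD17B3, next to 149 CPM. The first was heavy replicate 2, the second heavy replicate 3 and the third heavy replicate 4. NR3C1, the glucocorticoid receptor, and ACADM, an enzyme of fatty acid oxidation, peaked in heavy replicate 3 at 14.6 and 123 CPM. ATF3, a stress factor, peaked in heavy replicate 4 at 9.44 CPM, and KRT8 in heavy replicate 7 at 44.0 CPM.

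Heavy replicate 6 was highest for GDF10 at 4.37 CPM and for MRC1, a macrophage receptor, at 76.3 CPM. Heavy replicate 1 was highest for PANK1 at 19.9 CPM and for the mitochondrial genes ND2 and ND5 at 5790 and 3449 CPM. In light pigs ND5 reached 4969 CPM in replicate 3, and PANK1 8.77 CPM in replicate 4, which was lowest for SUN5 at 74.5 CPM. Light replicate 5 was highest for MGARP at 27.2 CPM, light replicate 7 for ZC3H12C at 14.8 CPM, and light replicate 8 for POLA2 at 31.2 CPM and SUMF1 at 25.0 CPM. Light replicate 1 was lowest for RARG at 3.24 CPM.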

How the results depend on the processing

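No gene was called between the classes, over both diets, under any of the 33 alternatives. The count at an unadjusted p under 0.05 was 164, 349 without heavy replicate 3, and 484 with no filter on low counts. The androstenone difference, 1.66 mg/kg and not under 0.05 before adjustment, was under it at 1.20 on the log2 scale, at 5.4 in ranks, at 2.35 mg/kg in libraries of 8000000 counts or fewer and at 2.19 mg/kg without light replicate 1 (1.09 to 2.19 mg/kg over single pigs left out). The difference in High AS share was 75 percentage points in libraries of 8000000 or fewer, past the threshold. That subset left out both High AS light pigs, for the share and for androstenone alike. The correlation of 0.43 was under 0.05 before adjustment but not after it. It was not under 0.05 before adjustment within High AS pigs (0.28), within Low AS pigs (0.45) or without the 2 pigs farthest from the median weight (0.35). Within Low AS pigs r was as large on fewer pigs. Without the 2 pigs farthest from the median weight of each AS group, r was 0.17 in High AS and 0.11 in Low AS pigs. The breeding value difference was 0.0108 in libraries of 8000000 or fewer, against -0.0438. The causes were not tested.

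Some estimates, all uncalled, changed sign. In the 5 libraries above 8000000 counts the log2 folds were CYB5A -0.10, LHCGR -1.07, INSL3 -0.25, GHR 0.15, IGF2R 0.18, ACRV1 -0.0396, PRM1 -0.073, TNP1 -0.012, VCAM1 -0.33, GDF10 0.25, MCM2 0.0296, LAMB1 -0.039, PDGFRB -0.17, ACTA2 0.15, MRC1 0.000803, ADAM7 0.17, IFI44 -0.49, ND2 -0.235, ND5 -0.16 and ANGPTL4 0.13. With the log2 of androstenone added they were HSD17B3 0.10, GHR 0.048, IGF2R 0.35, SOX9 0.018, AKAP4 -0.017, SYCP3 0.026, PRM1 -0.295, TNP1 -0.18, VCAM1 -0.042 and ADAM28 0.078. With AS group added they were IGF1 0.064, GHR 0.11, AKAP4 -0.048, SYCP3 0.012, PRM1 -0.20, TNP1 -0.096, LAMB1 -0.21 and PDGFRB -0.12. With no depth term they were IGF2R 0.12, AKAP4 -0.011, TNP1 -0.071, SUMF1 0.0013, PDGFRB -0.00517, ND2 -0.24 and ND5 -0.27. By limma voom they were LHCGR -0.019, GHR 0.041, PRM1 -0.081 and TNP1 -0.061, and with sow as a random effect LHCGR -0.042, PRM1 -0.0304 and TNP1 -0.016. In libraries of 8000000 or fewer they were INHA 0.029, SOX9 0.074, SYCP3 0.027 and ADAM28 0.0061. With diet added they were PRM1 -0.034 and TNP1 -0.022, with weight as a number SYCP3 0.028 and ACTA2 0.00423, with 3 weight classes IGF2R 0.015, and with a term for the index set PRM1 -0.0096. Leaving out single pigs gave -0.19 to 0.23 for GHR, -0.32 to 0.17 for IGF2R, -0.0934 to 0.0302 for SYCP3, -0.13 to 0.14 for PRM1, -0.10 to 0.14 for TNP1 and -0.31 to 0.00255 for ACTA2. No paired analysis was possible by replicate number because these follow accession order. Sow does link 8 pigs of 3 litters across the classes. As a random effect (correlation 0.134) it gave no call, and as a fixed block, added after seeing the data, 0 calls with 498 of 13940 genes (3.57%) under 0.05 before adjustment, on 5 residual degrees of freedom. Leaving out 1 pig moved 56 of 91 named log2 folds by over 1.5 times, and 6 of these changed sign. With 13 libraries of 8000000 counts or fewer, low genes such as LHCGR, DHH and GDF10 rest on few reads.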

Other observations

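In 3 litters heavy and light brothers of the same sow can be set side by side. In the first, the heavy pig of 92.6 kg had 5.9 mg/kg androstenone and 1955 CPM of CYP17A1, while the light brothers of 82.1, 85.8 and 82.7 kg had 1.12, 0.93 and 0.79 mg/kg and 367, 1459 and 790 CPM. In the second, the heavy pig had 0.56 mg/kg and 680 CPM and the light pig 0 mg/kg and 283 CPM. Both sows also had a pig between the classes, at 86.6 kg with 3.89 mg/kg in the first litter. In the second it weighed 89.4 kg and had 1.46 mg/kg, more than its heavy brother. In the third, the heavy pig had 1.94 mg/kg and 675 CPM and the light pig 4.74 mg/kg and 473 CPM. Among heavy and light brothers, CYP17A1 was thus highest in the heavy pig in each of these litters, while androstenone was not in the third. The light pig of the third litter and the light pig of 82.1 kg had libraries above 8000000 counts, unlike their heavy brothers. In the third litter the heavy pig was also fed chicory and the light pig the control diet. The heavy pig of the first litter was likewise fed chicory, and its light brother of 85.8 kg the control diet. Weight cannot be told apart from these differences between those brothers. SRD5A1 had 159 CPM in the heavy brother and 36.3, 70.8 and 39.3 CPM in the light brothers of the first litter, 38.8 and 22.0 CPM in the second, and 45.6 and 59.2 CPM in the third. With so few litters none of this was tested.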
